A study of Mus musculus with 24 samples.

Results

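Liver RNA sequencing was used to compare the response to a high fat diet between mice whose hepatocytes lacked JNK2 and mice with intact JNK genes. The measure described is the diet by JNK2 interaction, which is the difference between high fat and chow in Jnk2 livers minus the same difference in control livers. It used 12 of the 24 libraries of the study, 3 in each of 4 groups: Jnk2 on high fat, control on high fat, Jnk2 on chow and control on chow. All mice were C57BL/6J and carried Alb-Cre, a transgene that expresses Cre recombinase in hepatocytes, and the control mice carried no other stated allele. The Jnk2 mice (Alb-Cre+ Jnk2flox/flox) also carried conditional alleles of Mapk9, the gene of JNK2, and each diet was given for 16 weeks. Livers lacking JNK1 (Alb-Cre+ Jnk1flox/flox) or both kinases (Alb-Cre+ Jnk1flox/flox Jnk2flox/flox), called Jnk1 and Jnk1Jnk2 here, were used for comparison. Whether the replicates of a group came from different mice is not stated in the labels. The p-values therefore refer to the variation among these libraries, part or all of which may be technical.

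JNK1 and JNK2 are kinases of the stress-activated branch of the MAP kinase family. They are switched on by cytokine receptors, saturated fatty acids and endoplasmic reticulum stress, and they phosphorylate c-Jun, JunD and other members of the AP-1 family of transcription factors. In hepatocytes they are known to restrain the nuclear receptor PPARα, which turns on genes of fatty acid oxidation and ketone body formation. Most of the acute phase genes described below encode plasma proteins that hepatocytes secrete. Many of them respond to interleukin-6 and interleukin-1, through the transcription factors STAT3, C/EBPβ and NF-κB. The list also holds other genes, such as those of the metalloreductase Steap4, the receptor Il1r1 and Stat3 itself.

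Levels are given as FPKM, which are fragment numbers divided by transcript length and by the mapped total of the library, and changes as differences of log2(FPKM + 1) ± SE with 3 libraries per group, which understate the change of low genes. Adjusted p-values are those of limma with Benjamini-Hochberg adjustment over 10562 loci, and a locus was called when its adjusted p was under 0.05. Mapk9 (chromosome 11, 49846751 to 49886421, mm10) checked the labels: it was at 7.44, 6.58 and 7.79 FPKM in high fat Jnk2, against 11.8, 10.3 and 10.9 in high fat control, and 6.89, 6.59 and 5.60 in chow Jnk2, against 9.83, 9.19 and 10.8 in chow control. It was lower in every Jnk2 library than in every control library on the same diet, and its interaction was 0.03 ± 0.12 (adjusted p = 0.895). The level that remained was measured over the whole locus and over all liver cells, with or without recombination. Mapk8, the gene of JNK1, had an interaction of -0.08 ± 0.15 (adjusted p = 0.772). The sign of both small values turned under other settings.

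The absolute depth is unknown, and relative depth over the 12 libraries ranged from 0.319 to 1 of the deepest, chow control replicate 1. Pearson correlations within a group ranged from 0.951 to 0.977. The lowest was that of high fat Jnk2 replicate 3, which also had the lowest weight of the 24 libraries, 0.24, when limma estimated array weights. The libraries also differed in length trend. Spearman correlations of deviations from the mean of all libraries with transcript length were -0.03, -0.11 and 0.16 in high fat Jnk2 replicates 1 to 3. In high fat control they were 0.22, -0.01 and 0.16, in chow Jnk2 0.06 to 0.18 and in chow control 0.10 to 0.17. Transcripts of skeletal muscle were present in chow Jnk2 replicates 1 and 3, with summed levels of the muscle list of 175.7 and 21.9 FPKM, against 0.039 to 2.49 FPKM in the other 10 libraries. The exocrine pancreas list summed to 1103 FPKM in chow control replicate 3, 273 in chow Jnk2 replicate 2 and 80.9 in high fat control replicate 1, against 6.4 to 17.2 in the other 9. The neutrophil list summed to 145 FPKM in chow Jnk2 replicate 1 and 94.3 in high fat control replicate 2, against 16.5 to 36.9 in the others. None of the tested muscle, pancreas and neutrophil markers was called in the interaction (0 of 8, 0 of 11 and 0 of 4). Over all loci 9.52% were called. The list medians were -1.75, -0.21 and -1.69, and without chow Jnk2 replicate 1 they were -0.65, -0.84 and -0.85. With lists this small and libraries this uneven, the absence of calls does not show an absence of differences.

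Of the 10562 loci, 1005 (9.52%) had a different diet response in Jnk2 livers, 653 higher (6.18%) and 352 lower (3.33%). The median interaction over all loci was 0.071 on the log2 scale. Median-of-ratios size factors moved that median to -0.008 and gave 501 higher and 525 lower calls. Quantile normalization gave 662 and 587, and removal of the trend on transcript length 614 and 497. In most called loci the fitted diet response differed in sign between the genotypes: 523 of the 653 higher loci and 289 of the 352 lower loci had opposite signs in Jnk2 and control. A further 108 higher and 20 lower loci had an enlarged response of the same sign, and 22 and 43 had a reduced one. Of the 653, 399 were called higher on high fat in Jnk2 and not called in control, 151 were called lower on high fat in control and not called in Jnk2, and 44 were called in both, in opposite directions. Of the 352, 156 were called lower in Jnk2 and not in control, 131 were called higher in control and not in Jnk2, and 28 were called in both in opposite directions. These counts follow from the calls that define the loci and are descriptions. The count moved to 509 without chow Jnk2 replicate 3, 569 without high fat control replicate 2, 640 and 631 without chow control replicates 2 and 3, and 655 in a fit of the 4 groups alone.

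**Figure D1:**
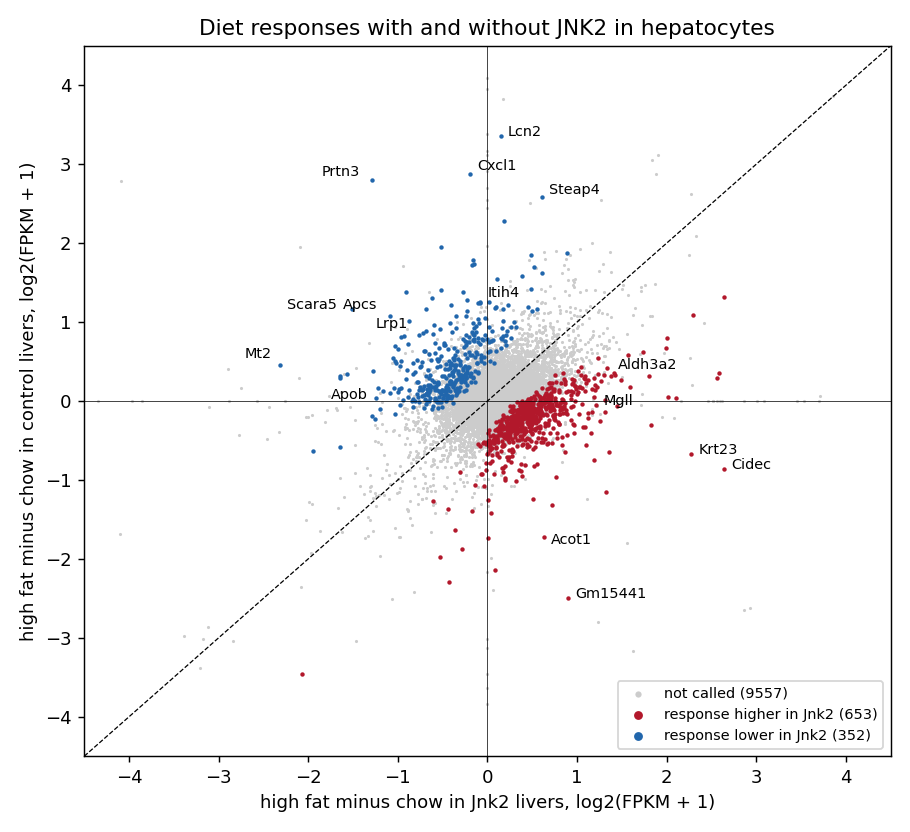
Each point is a tested locus, placed by the difference between high fat and chow on the log2(FPKM + 1) scale in Jnk2 livers (x axis) and in control livers (y axis); red and blue points were called in the interaction, the dashed line marks equal responses, and 10 loci lie outside the axes. The 653 red loci lie below the line and the 352 blue loci above it, many of them in the quadrants where the responses have opposite signs.

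Many acute phase genes had a lower response to the high fat diet in Jnk2 livers than in control livers. Of 26 tested members of the list, 17 had a lower diet response in Jnk2 and 0 a higher one (3.33% and 6.18% of all loci). The interactions of the 17 ran from -0.76 to -3.21, and the list median was -1.28, against 0.071 over all loci. In control livers 11 members rose on high fat and 0 fell (10.1% and 6.19% of all loci). In Jnk2 livers 0 rose and 9 fell (19.7% and 6.39% of all loci). On high fat, 19 of the 26 were lower in Jnk2 than in control (4.96% of all loci were), and on chow 0 were called (0.35%). In whole liver, fewer cells of a type and less RNA per cell cannot be told apart.

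Apcs, which encodes serum amyloid P component, an acute phase pentraxin of the mouse, was at 57.6, 45.0 and 61.1 FPKM in high fat Jnk2, against 172, 202 and 183 in high fat control, and 225, 100.2 and 69.2 in chow Jnk2, against 84.2, 109 and 71.6 in chow control. All high fat Jnk2 libraries lay below all high fat control libraries, while the chow groups overlapped, with chow Jnk2 replicate 1 the highest of the 12. The interaction was -2.17 ± 0.38 (adjusted p = 0.0028): Apcs fell by 1.09 ± 0.27 on high fat in Jnk2 (adjusted p = 0.00595) and rose by 1.08 ± 0.27 in control (adjusted p = 0.00984). Steap4, a metalloreductase induced by inflammatory cytokines, was at 60.3, 39.4 and 28.2 FPKM in high fat Jnk2, against 77.1, 91.0 and 88.8 in high fat control, and 34.1, 24.7 and 21.7 in chow Jnk2, against 12.8, 12.8 and 14.9 in chow control. Here the groups separated on both diets, but in opposite order: Jnk2 was the lower on high fat and the higher on chow. The interaction was -1.97 ± 0.36 (adjusted p = 0.00366), with a rise of 2.58 ± 0.25 in control (adjusted p = 4.45e-06) and a difference of 0.61 ± 0.25 in Jnk2 that was not called (adjusted p = 0.0831). Itih4, a plasma inhibitor family member of the acute phase, was at 548, 476 and 549 FPKM in high fat Jnk2, against 984, 850.1 and 943 in high fat control, and 726, 573 and 410.0 in chow Jnk2, against 369, 452 and 352 in chow control. The high fat groups did not overlap and the chow groups did, and the interaction was -1.33 ± 0.26 (adjusted p = 0.00581).

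Serpina3n, an acute phase serine protease inhibitor, had an interaction of -1.33 ± 0.27 (adjusted p = 0.00653), with 279.9, 247 and 302 FPKM in high fat Jnk2, against 365, 402 and 402 in high fat control. On chow its order was the opposite, with 431, 249 and 228 FPKM in chow Jnk2, against 186, 157 and 148 in chow control, and neither pair of groups overlapped. Saa4, a constitutive serum amyloid A, was at 205, 154 and 50.9 FPKM in high fat Jnk2, against 251, 336 and 348 in high fat control, an interaction of -2.10 ± 0.45 (adjusted p = 0.00955), or -1.50 without high fat Jnk2 replicate 3, and its call was lost in the fit of the 4 groups alone. Saa1, the inducible serum amyloid A, had 187, 126 and 84.6 FPKM in high fat Jnk2, against 1563, 1542 and 1213 in high fat control. That is a difference of -3.50 ± 0.81 on high fat (adjusted p = 0.00779), but its chow libraries spread widely, at 2703, 1257 and 246 FPKM in chow Jnk2, against 956, 2137 and 618 in chow control, and its interaction of -3.30 ± 1.14 was not called (adjusted p = 0.0721). Lcn2, which encodes lipocalin 2, a binder of bacterial siderophores, was at 80.9, 48.8 and 56.8 FPKM in high fat Jnk2, against 323, 359 and 326 in high fat control, and 193, 52.1 and 15.8 in chow Jnk2, against 22.4, 63.1 and 22.5 in chow control. Its interaction of -3.21 ± 0.92 (adjusted p = 0.0351) rested on single libraries: the call was lost in 8 of 12 fits that left out 1 library each, with -2.31 without chow Jnk2 replicate 1. The family members that resemble each other closely (Saa1 to Saa4, the Orm genes, the Serpina3 cluster) can share reads, so their separate values are uncertain. The list count was 11 without chow Jnk2 replicate 1, the library with the highest neutrophil markers, 14 without high fat Jnk2 replicate 3, and 10 in the fit of the 4 groups alone. The part of those neutrophil transcripts in the result was not tested.

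The 2 list members with the smallest p are shown with the 250 bases before their annotated start, since 17 members were called in 1 direction and the factors of the acute phase response are known to bind near starts. Sequences are from RefSeq (GRCm38.p6, the same assembly as mm10), 5′ to 3′ on the gene's strand. Apcs is the minus strand of chr1:172895055-172895304 and Steap4 the plus strand of chr5:7960222-7960471. Capitals mark matches on either strand to TTNNGCAA (a C/EBP site), TTCNNNGAA (a STAT site), GGGNN joined to TTTCC (an NF-κB site) or TGANTCA (an AP-1 site).
Apcs: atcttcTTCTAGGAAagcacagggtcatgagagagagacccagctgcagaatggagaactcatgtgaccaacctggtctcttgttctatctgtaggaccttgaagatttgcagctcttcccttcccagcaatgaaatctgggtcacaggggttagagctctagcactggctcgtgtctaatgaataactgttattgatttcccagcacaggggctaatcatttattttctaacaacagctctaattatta
Steap4: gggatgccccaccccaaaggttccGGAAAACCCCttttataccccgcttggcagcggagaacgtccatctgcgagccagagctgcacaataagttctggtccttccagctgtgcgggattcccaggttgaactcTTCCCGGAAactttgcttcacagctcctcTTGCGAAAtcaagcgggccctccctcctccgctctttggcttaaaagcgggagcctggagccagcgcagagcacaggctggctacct
Apcs held a STAT match at 244 to 236 bases before the start. Steap4 held 1 C/EBP match at 87 to 80, 1 STAT match at 116 to 108 and 1 NF-κB match at 226 to 217 bases before the start, with no overlap between them. Of the 17 called members, 14 matched a RefSeq promoter, of which 8 held the C/EBP letters, 5 the STAT letters, 2 the NF-κB letters and 3 the AP-1 letters. Of the 23 matched members of the list, called or not, 13, 8, 2 and 7 held them. Among all 32851 RefSeq promoters of this length the shares were 9.56%, 7.02%, 1.41% and 6.75%. Here and below a member was counted when any of its annotated promoters held the letters, while the shares count each promoter. Genes with several starts thus had more chances of a match than a single promoter. A match is a description of the sequence and not a measured site.

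Prtn3, Cxcl1 and Scara5 were among the loci with the most negative interactions. Prtn3, known as the gene of the myeloid serine protease proteinase 3, was at 0.73, 0.118 and 0.359 FPKM in high fat Jnk2, against 11.6, 9.18 and 8.94 in high fat control, and 8.14, 1.42 and 0.745 in chow Jnk2, against 0.553, 0.74 and 0.39 in chow control. The high fat groups did not overlap, and chow Jnk2 replicate 1 stood near the high fat control level. The interaction was -4.09 ± 0.62 (adjusted p = 0.000709) and -3.38 at its smallest with 1 library left out. Cxcl1, a chemokine that recruits neutrophils, was at 13.4, 9.86 and 10.1 FPKM in high fat Jnk2, against 22.2, 24.5 and 31.8 in high fat control, and 26.4, 8.78 and 8.67 in chow Jnk2, against 5.03, 1.25 and 2.59 in chow control, with an interaction of -3.07 ± 0.60 (adjusted p = 0.00549). It rose by 2.88 ± 0.42 on high fat in control (adjusted p = 0.000184), where all libraries on high fat were above all on chow. In Jnk2 the diet groups overlapped and the difference was -0.19 ± 0.42 (adjusted p = 0.773). Scara5, a scavenger receptor that takes up ferritin, was at 1.07, 0.511 and 1.33 FPKM in high fat Jnk2, against 3.32, 2.21 and 3.44 in high fat control, and 5.19, 4.76 and 3.74 in chow Jnk2, against 0.613, 0.765 and 0.893 in chow control. It was called in every component: higher in Jnk2 on chow by 1.66 ± 0.26 (adjusted p = 0.00668), lower in Jnk2 on high fat (-1.03 ± 0.26, adjusted p = 0.0129), and -2.68 ± 0.36 in the interaction (adjusted p = 0.000358). Its order was fully turned, with no overlap on either diet.

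Interferon-stimulated genes rose on high fat in both genotypes, and the rise was smaller for some in Jnk2. Of 30 members, 23 rose in Jnk2 and 27 in control (19.7% and 10.1% of all loci rose), and 0 fell in either. The interaction was lower for 6 (3.33% of all loci) and higher for 0, all 6 of the reduced kind, and the list median was -0.29. Gbp7, an interferon-induced GTPase, was at 2.59, 2.46 and 2.08 FPKM in high fat Jnk2, against 3.79, 4.53 and 3.24 in high fat control, and 1.41, 1.41 and 1.54 in chow Jnk2, against 1.26, 1.07 and 1.03 in chow control. Both diets separated within each genotype, and the interaction was -0.73 ± 0.16 (adjusted p = 0.0102). Ifih1, the cytosolic sensor of double-stranded RNA MDA5, was at 5.50, 5.01 and 4.64 FPKM in high fat Jnk2, against 7.11, 7.69 and 7.47 in high fat control, with an interaction of -0.76 ± 0.17 (adjusted p = 0.0106). Iigp1, an immunity-related GTPase, had an interaction of -0.71 ± 0.16 (adjusted p = 0.0108). The count was 3 without high fat control replicate 2 and 4 without high fat Jnk2 replicate 3.

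Genes of the unfolded protein response, among them chaperones that fold secretory proteins in the endoplasmic reticulum, were called in the lower direction. Of 20 tested members, 7 had a lower diet response in Jnk2 and 0 a higher one (3.33% and 6.18% of all loci), from -0.38 to -1.59, with a list median of -0.61. In Jnk2 7 fell on high fat and 0 rose (6.39% and 19.7% of all loci). In control 3 rose and 0 fell, a share near the 10.1% of all loci that rose. Hspa5, the chaperone BiP, was at 140.1, 131 and 119 FPKM in high fat Jnk2, against 246, 244 and 264 in high fat control, and 185, 213 and 219 in chow Jnk2, against 223, 170.4 and 224 in chow control. The high fat Jnk2 libraries were the lowest 3 of the 12, and the interaction was -0.95 ± 0.23 (adjusted p = 0.015). Hsp90b1, the chaperone GRP94, was at 160.1, 147 and 146 FPKM in high fat Jnk2, against 207, 192 and 217 in high fat control, and 183, 217 and 204 in chow Jnk2, against 191, 156 and 174 in chow control, with an interaction of -0.66 ± 0.13 (adjusted p = 0.00594). Its high fat groups were separate and its chow groups overlapped. Sdf2l1, a partner of the luminal chaperone complex, was at 8.46, 7.63 and 3.72 FPKM in high fat Jnk2, against 16.3, 26.9 and 22.0 in high fat control (-1.59 ± 0.35, adjusted p = 0.0106), and Pdia3, a disulfide isomerase, had an interaction of -0.77 ± 0.18 (adjusted p = 0.0131). The count was 4 without chow control replicate 2 or chow Jnk2 replicate 2, 5 in the fit of the 4 groups alone, and 11 and 13 with size factors and quantile normalization.

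The promoter of Hsp90b1, the list member with the smallest p, is shown because its gene is known for the endoplasmic reticulum stress element. It is the minus strand of chr10:86705445-86705694 in the same RefSeq build, with capitals at each match on either strand to CCAAT and CCACG with any 9 bases between them.
Hsp90b1: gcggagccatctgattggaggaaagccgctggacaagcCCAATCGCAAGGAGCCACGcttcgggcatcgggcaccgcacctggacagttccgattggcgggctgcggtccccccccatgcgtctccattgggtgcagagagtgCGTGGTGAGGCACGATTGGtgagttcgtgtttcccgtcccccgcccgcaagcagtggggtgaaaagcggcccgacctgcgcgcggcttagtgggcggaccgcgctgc
The element occurred at 212 to 194 and at 107 to 89 bases before the start. All 7 called members matched a promoter and 3 held it (Hsp90b1, Hspa5 and Canx), against 0.113% of all promoters, and of the 18 matched members in the table, called or not, 8 held it.

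**Figure D2:**
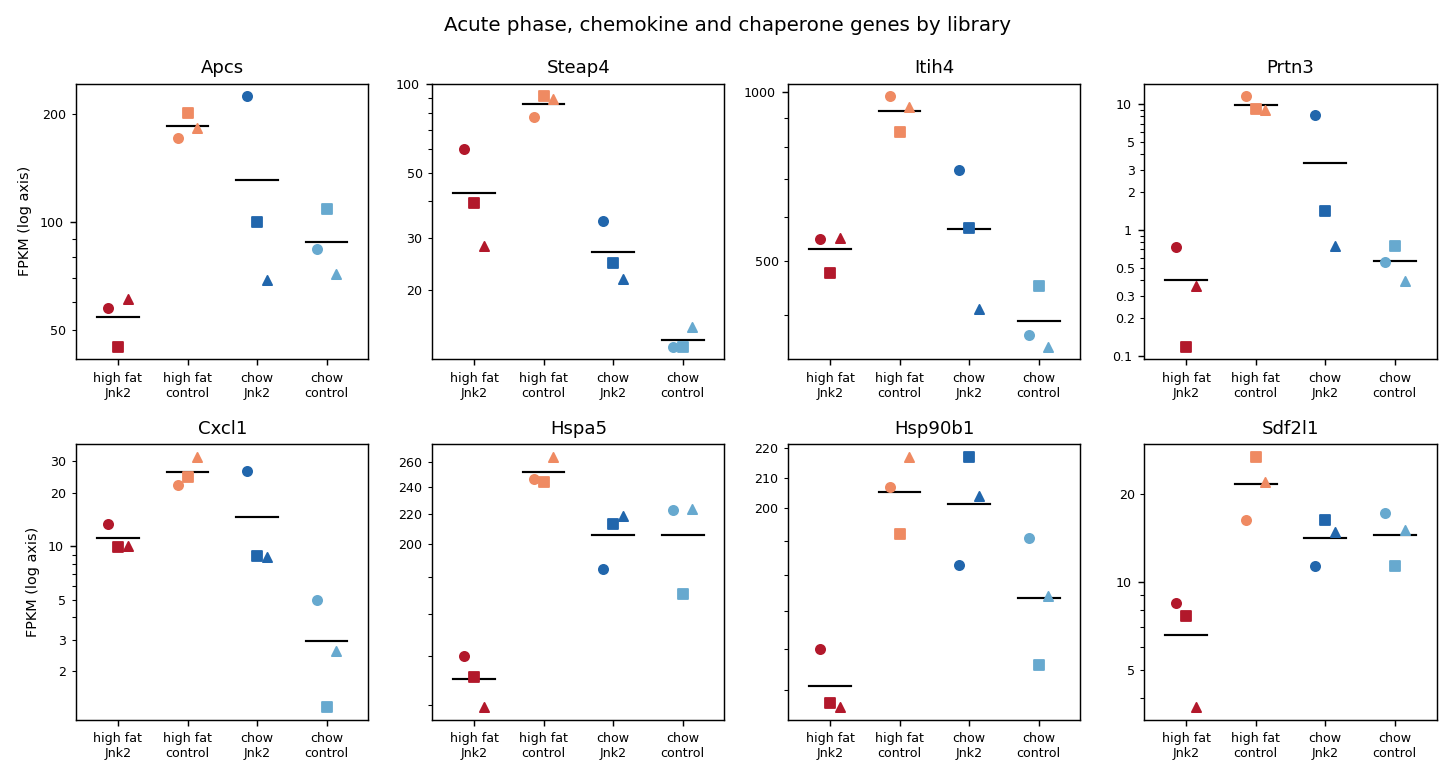
FPKM on a log axis in each library (circle, square and triangle for replicates 1, 2 and 3) of high fat Jnk2, high fat control, chow Jnk2 and chow control livers, with a line at the group mean. In all 8 genes the high fat Jnk2 libraries lie below the high fat control libraries, and chow Jnk2 replicate 1 is the highest chow library for Apcs, Steap4, Itih4, Prtn3 and Cxcl1.

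Genes of fatty acid oxidation took the opposite course. Of 35 tested PPARα targets and oxidation genes, 18 had a higher diet response in Jnk2 and 0 a lower one (6.18% and 3.33% of all loci). The interactions of the 18 ran from 0.41 to 2.34, and the list median was 0.64, against 0.071 over all loci. In Jnk2 22 members rose on high fat and 0 fell (19.7% and 6.39% of all loci). In control 2 rose and 10 fell (10.1% and 6.19% of all loci). On high fat 28 of the 35 were higher in Jnk2 than in control (7.45% of all loci were), and on chow 0 were called (0.104%). Ppara itself was at 49.7, 48.4 and 54.9 FPKM in high fat Jnk2, against 49.4, 42.2 and 50.2 in high fat control, and 37.6, 41.5 and 44.0 in chow Jnk2, against 36.9, 34.3 and 38.5 in chow control. High fat libraries were above chow libraries in both genotypes and Jnk2 overlapped control on high fat, and the interaction was -0.05 ± 0.16, with an interval of -0.38 to 0.28 (adjusted p = 0.875).

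Acot1, a cytosolic acyl-CoA thioesterase gene (chromosome 12, 84009502 to 84017669, mm10), was at 90.7, 114 and 143 FPKM in high fat Jnk2, against 30.8, 23.3 and 29.3 in high fat control, and 68.1, 87.1 and 66.8 in chow Jnk2, against 84.7, 98.5 and 96.8 in chow control. The high fat control libraries were the lowest 3 of the 12, and high fat Jnk2 overlapped chow control. The interaction was 2.34 ± 0.27 (adjusted p = 0.000137): Acot1 fell by 1.72 ± 0.19 on high fat in control (adjusted p = 1.45e-05) and rose by 0.63 ± 0.19 in Jnk2 (adjusted p = 0.0211). Acot2, its mitochondrial neighbour (chromosome 12, 83987861 to 83993875), was at 19.8, 18.6 and 28.2 FPKM in high fat Jnk2, against 7.51, 6.01 and 5.52 in high fat control, and 8.58, 8.23 and 6.96 in chow Jnk2, against 10.2, 10.3 and 10.8 in chow control. High fat Jnk2 was above all other libraries and high fat control below chow control, with an interaction of 2.01 ± 0.22 (adjusted p = 7.5e-05). The Acot genes of this cluster are close copies, so reads may be shared between them. Acaa1b, a peroxisomal thiolase, was at 1244, 1316 and 1496 FPKM in high fat Jnk2, against 624, 399 and 561 in high fat control, and 610.0, 684 and 591 in chow Jnk2, against 724, 759 and 813 in chow control, with an interaction of 1.66 ± 0.21 (adjusted p = 0.000164). All high fat Jnk2 libraries exceeded the other 9. Thiolase copies Acaa1a and Acaa1b were both called.

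Aldh3a2, the fatty aldehyde dehydrogenase, was at 449, 398 and 504 FPKM in high fat Jnk2, against 209, 170.1 and 184 in high fat control, and 163, 186 and 168 in chow Jnk2, against 147, 154 and 150.2 in chow control. It rose by 1.38 ± 0.11 on high fat in Jnk2 (adjusted p = 1.97e-07), against a difference of 0.31 ± 0.11 in control that was not called (adjusted p = 0.0572), so its response was enlarged, with an interaction of 1.06 ± 0.16 (adjusted p = 0.000617). Ehhadh, the peroxisomal bifunctional enzyme, was at 301, 442 and 1479 FPKM in high fat Jnk2, against 159, 133 and 166 in high fat control, and 567, 608 and 473 in chow Jnk2, against 577, 646 and 812 in chow control. Most of its high fat Jnk2 mean came from replicate 3: the interaction was 2.23 ± 0.49 (adjusted p = 0.0105) with it and 1.55 without it (adjusted p = 0.0021), and the call was lost in the fit of the 4 groups alone. Gm15441, a predicted locus, was at 10.1, 15.0 and 43.1 FPKM in high fat Jnk2, against 1.77, 1.71 and 0.568 in high fat control, and 12.9, 9.68 and 7.17 in chow Jnk2, against 11.4, 13.2 and 11.0 in chow control. High fat control lay below every other library, and the interaction was 3.39 ± 0.49 (adjusted p = 0.000586), or 2.82 without high fat Jnk2 replicate 3.

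Fgf21, the hepatokine that PPARα induces, was at 12.8, 13.6 and 68.2 FPKM in high fat Jnk2, against 6.29, 10.4 and 15.4 in high fat control, and 6.57, 5.05 and 7.37 in chow Jnk2, against 8.84, 8.21 and 11.5 in chow control. Only high fat Jnk2 replicate 3 stood clear of the high fat control libraries. It was called higher on high fat in Jnk2 (1.73 ± 0.44, adjusted p = 0.00747), but the interaction of 1.64 ± 0.62 was not called (adjusted p = 0.0978) and was 0.87 without that library. Bdh1, the hydroxybutyrate dehydrogenase of ketone metabolism, had an interaction of 0.58 ± 0.17 (adjusted p = 0.0396), and its call was lost in 9 of 12 fits that left out 1 library each. The oxidation list gave 16 members without high fat Jnk2 replicate 3 and 12 without high fat control replicate 2. Of the 18 called members 15 matched a RefSeq promoter. In the 250 bases 0 held the PPAR letters, AGGNCA repeated on the same strand after any 1 base, against 0.338% of all promoters. With letters this rare, 0 of 15 promoters does not show an absence of PPAR sites.

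Lipid droplet genes were also called in the higher direction. Of 16 tested members 8 had a higher diet response in Jnk2 and 0 a lower one (6.18% and 3.33% of all loci), with a median of 0.67. In Jnk2 10 rose on high fat and 0 fell (19.7% and 6.39% of all loci), and in control 3 rose and 3 fell (10.1% and 6.19%). Mgll, monoacylglycerol lipase (chromosome 6, 88724412 to 88828360, mm10), had the smallest interaction p of all tested loci: it was at 145, 137 and 150.3 FPKM in high fat Jnk2, against 73.4, 62.8 and 81.6 in high fat control, and 65.2, 63.8 and 55.3 in chow Jnk2, against 76.0, 72.2 and 76.8 in chow control. High fat Jnk2 was above all other libraries, the high fat and chow control libraries overlapped, and the interaction was 1.27 ± 0.14 (adjusted p = 7.5e-05). Cidec, a droplet fusion protein of fatty liver, was at 52.9, 50.1 and 146 FPKM in high fat Jnk2, against 14.5, 5.03 and 4.33 in high fat control, and 16.1, 8.86 and 8.90 in chow Jnk2, against 12.3, 11.3 and 17.2 in chow control. All high fat Jnk2 libraries exceeded the other 9, replicate 3 most, and the interaction was 3.50 ± 0.52 (adjusted p = 0.000692), or 3.01 without that library. Plin2, the perilipin that coats hepatocyte droplets, was at 475, 474 and 884 FPKM in high fat Jnk2, against 333, 328 and 280.0 in high fat control, and 308, 283 and 249 in chow Jnk2, against 417, 353 and 416 in chow control. Its interaction was 1.40 ± 0.25 (adjusted p = 0.00362), or 1.10 without high fat Jnk2 replicate 3, and Fitm2, a droplet assembly protein, had 0.80 ± 0.19 (adjusted p = 0.0137). The list count was 5 without chow control replicate 3 or chow Jnk2 replicate 3, and 4 without high fat control replicate 2 or in the fit of the 4 groups alone.

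**Figure D3:**
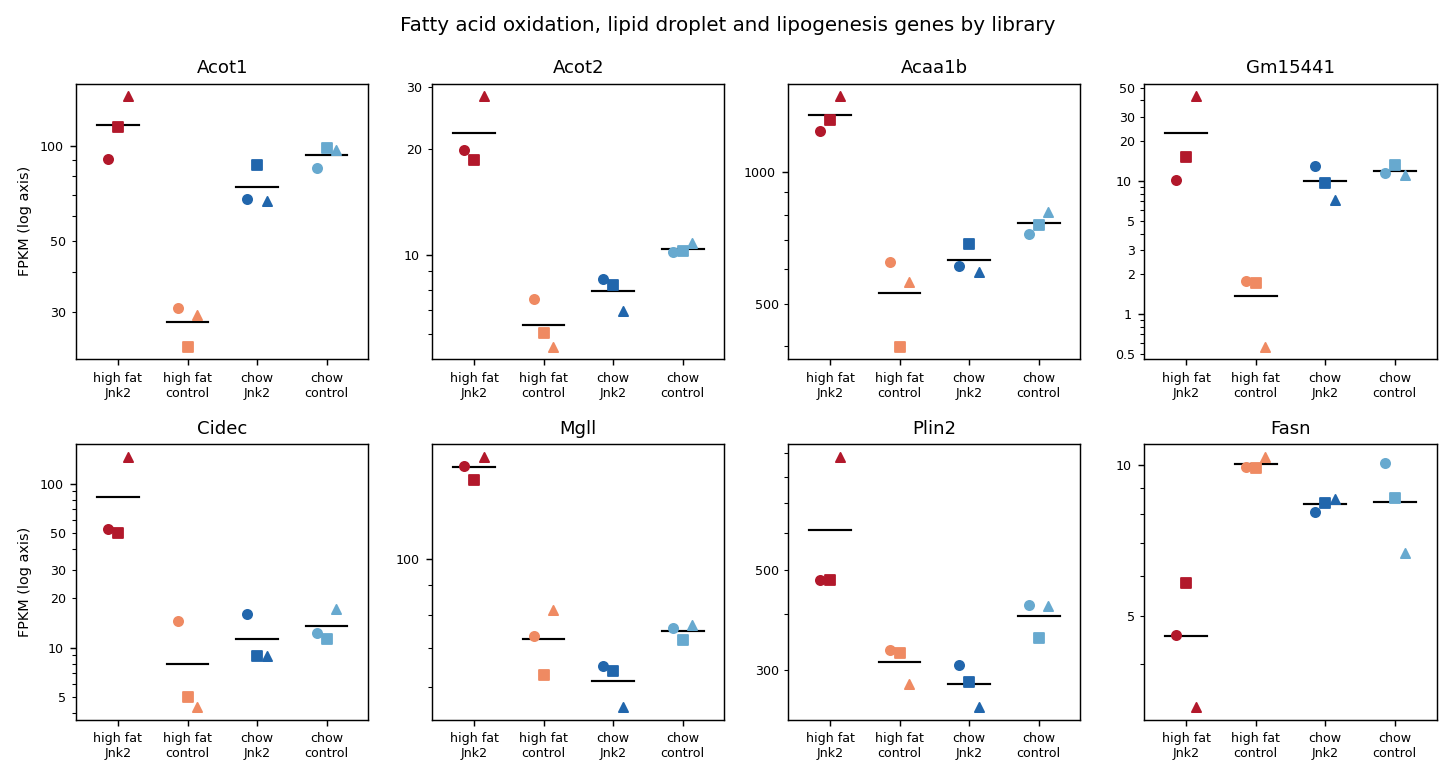
FPKM on a log axis in each library (circle, square and triangle for replicates 1, 2 and 3) of high fat Jnk2, high fat control, chow Jnk2 and chow control livers, with a line at the group mean. High fat Jnk2 lies above high fat control in 7 genes, most widely in Cidec and Gm15441, and below it in Fasn.

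Of 22 lipogenesis genes 3 were called higher and 2 lower (6.18% and 3.33% of all loci), with a median of -0.07. The higher count was 1 without chow Jnk2 replicate 3 or high fat control replicate 2. The lower 2 encode the enzymes that make fatty acids from acetyl-CoA. Acaca, acetyl-CoA carboxylase 1, was at 2.34, 2.43 and 3.09 FPKM in high fat Jnk2, against 4.70, 4.81 and 5.93 in high fat control, and 5.11, 4.37 and 4.19 in chow Jnk2, against 3.71, 3.97 and 4.60 in chow control, with an interaction of -0.89 ± 0.16 (adjusted p = 0.00376). Fasn, fatty acid synthase, was at 4.57, 5.82 and 3.28 FPKM in high fat Jnk2, against 9.92, 9.89 and 10.4 in high fat control, and 8.07, 8.41 and 8.58 in chow Jnk2, against 10.1, 8.61 and 6.68 in chow control, with an interaction of -1.02 ± 0.25 (adjusted p = 0.0161). In both genes the high fat Jnk2 libraries were the lowest 3 of the 12. Agpat2, an acyltransferase of triglyceride synthesis, went the other way (0.61 ± 0.14, adjusted p = 0.0119): its chow Jnk2 level of 174 to 194 FPKM was below the 234 to 258 FPKM of chow control, and the high fat groups overlapped.

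Of 13 genes of fatty acid uptake and binding, 2 were called higher (Slc27a1 and Apoa4) and 1 lower (Lrp1), with a median of 0.34. Over all loci the shares were 6.18% higher and 3.33% lower. Apob, a member of the hepatocyte marker list and the structural protein of very low density lipoprotein, was at 162, 164 and 209 FPKM in high fat Jnk2, against 473, 370.3 and 369 in high fat control, and 424, 416 and 402 in chow Jnk2, against 334, 347 and 395 in chow control. High fat Jnk2 was lower than all other libraries, and the interaction was -1.39 ± 0.23 (adjusted p = 0.00155). Lrp1, the receptor that takes up lipoprotein remnants, was at 29.1, 34.0 and 25.4 FPKM in high fat Jnk2, against 94.9, 74.0 and 72.7 in high fat control, and 66.4, 44.7 and 43.1 in chow Jnk2, against 42.8, 41.7 and 48.5 in chow control (-1.60 ± 0.22, adjusted p = 0.000488). It fell by 0.76 ± 0.16 on high fat in Jnk2 (adjusted p = 0.00193) and rose by 0.84 ± 0.16 in control (adjusted p = 0.0015). Slc27a1, a fatty acid transporter, was at 13.7, 18.6 and 26.4 FPKM in high fat Jnk2, against 8.70, 5.42 and 7.10 in high fat control and had an interaction of 1.52 ± 0.31 (adjusted p = 0.00682). Apoa4, an apolipoprotein that rises with hepatic fat, was at 597, 494 and 2022 FPKM in high fat Jnk2, against 281, 146 and 146 in high fat control, and 195, 121 and 115 in chow Jnk2, against 109, 155 and 170.1 in chow control. Its interaction of 2.23 ± 0.58 (adjusted p = 0.0221) was 1.60 without high fat Jnk2 replicate 3, and the call was lost without chow control replicate 3 (0.0605 at the highest adjusted p), chow Jnk2 replicate 3 or high fat control replicate 2, and in the fit of the 4 groups alone.

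Of 23 cholesterol genes, 9 fell and 1 rose on high fat in Jnk2 livers (6.39% and 19.7% of all loci), while 1 fell and 1 rose in control (6.19% and 10.1%). In the interaction 1 of the 23 was called lower and 0 higher (3.33% and 6.18% of all loci), with a list median of -0.57. Of 18 bile acid genes 3 were called lower (3.33% of all loci) and 0 higher, and 1 was called lower without chow control replicate 2, chow Jnk2 replicate 3 or high fat control replicate 2. Abcb11, the bile salt export pump, was at 37.7, 34.0 and 32.8 FPKM in high fat Jnk2, against 76.1, 61.2 and 64.8 in high fat control, and 47.6, 46.0 and 38.3 in chow Jnk2, against 56.3, 50.1 and 59.6 in chow control, with an interaction of -0.60 ± 0.15 (adjusted p = 0.0165) that was not called in the fit of the 4 groups alone. Cyp7a1, the cholesterol hydroxylase that opens the classic bile acid pathway, was at 19.2, 22.1 and 25.2 FPKM in high fat Jnk2, against 42.8, 52.7 and 42.2 in high fat control, and 37.2, 29.5 and 43.0 in chow Jnk2, against 15.9, 17.7 and 27.8 in chow control. On high fat Jnk2 was the lower and on chow the higher, without overlap, and the interaction of -1.85 ± 0.48 (adjusted p = 0.0224) was not called without chow control replicate 1 or 2, chow Jnk2 replicate 3 or high fat control replicate 2, where it ranged from -1.70 to -1.77.

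Within the AP-1 and immediate early list, 4 of 13 members were called higher (6.18% of all loci) and 0 lower, with a median of 0.83. Chow control replicate 1 stood apart on this list, with a summed level of 198 FPKM, against 88.5 and 96.0 FPKM in the other chow control libraries, and the median was 0.61 without it. Jund, the AP-1 member that JNK phosphorylates, was at 28.9, 32.3 and 38.1 FPKM in high fat Jnk2, against 28.1, 24.2 and 30.3 in high fat control, and 28.8, 23.8 and 23.1 in chow Jnk2, against 56.0, 43.5 and 46.6 in chow control. The difference between genotypes lay on chow: Jund differed by -0.92 ± 0.16 between chow Jnk2 and chow control (adjusted p = 0.0109), while the high fat groups overlapped. It fell on high fat in control (-0.80 ± 0.16, adjusted p = 0.00206) and was not called in Jnk2 (0.38 ± 0.16, adjusted p = 0.0824), and the interaction was 1.17 ± 0.22 (adjusted p = 0.00451). Myc, a growth-promoting transcription factor gene, was at 6.99, 4.34 and 3.33 FPKM in high fat Jnk2, against 0.879, 1.03 and 1.70 in high fat control, the reverse arrangement with the genotypes separate on high fat, and had an interaction of 1.33 ± 0.34 (adjusted p = 0.0204). The Myc call was lost without chow control replicate 3 or chow Jnk2 replicate 3 (0.0592 at the highest adjusted p) and in the fit of the 4 groups alone. Fosl2 and Ier3, an AP-1 subunit and an early response gene, had interactions of 0.62 ± 0.16 (adjusted p = 0.0232) and 0.79 ± 0.21 (adjusted p = 0.0239). The list count was 2 without chow control replicate 3 or chow Jnk2 replicate 3. Of 10 genes of the JNK pathway 2 were called higher (6.18% of all loci), the kinase Map3k11 and the JNK phosphatase Dusp10. Each call held in 4 of 12 fits that left out 1 library.

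Many markers of sinusoidal endothelial and stellate cells, in which Alb-Cre is not known to be active, also rose on high fat in Jnk2. Of 12 endothelial markers 10 rose in Jnk2 (19.7% of all loci) and 1 in control, near the 10.1% of all loci. On high fat 11 were higher in Jnk2 than in control (7.45% of all loci were). In the interaction 4 were called higher and 0 lower (6.18% and 3.33% of all loci), with a median of 0.45. Of 12 stellate cell and collagen markers 9 rose in Jnk2 and 1 in control (19.7% and 10.1% of all loci). In the interaction 6 were called higher and 0 lower (6.18% and 3.33% of all loci), with a median of 0.68. The summed endothelial level was 154.7 to 163.6 FPKM in high fat Jnk2, 98.0 to 105.8 in high fat control, 91.4 to 102.4 in chow Jnk2 and 86.9 to 102.9 in chow control. The summed stellate level was 221.3 to 254.6 FPKM in high fat Jnk2, 142.6 to 194.3 in high fat control, 131.5 to 144.5 in chow Jnk2 and 118.1 to 145.9 in chow control. On both lists high fat Jnk2 stood above every library of the other groups, and the part of these cell types in the other results was not tested.

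Eng, the endothelial co-receptor endoglin, was at 25.9, 25.8 and 25.3 FPKM in high fat Jnk2, against 15.5, 11.4 and 14.7 in high fat control, and 14.1, 13.2 and 11.7 in chow Jnk2, against 11.7, 14.3 and 14.6 in chow control. The high fat Jnk2 libraries agreed closely and were apart from the other 9, with an interaction of 0.90 ± 0.14 (adjusted p = 0.00098). Oit3, a marker of liver sinusoidal endothelium, was at 10.7, 10.7 and 11.8 FPKM in high fat Jnk2, against 5.60, 4.12 and 5.62 in high fat control, and 5.91, 6.98 and 5.73 in chow Jnk2, against 4.29, 6.07 and 6.51 in chow control (0.86 ± 0.18, adjusted p = 0.00892). Col4a1, a basement membrane collagen, was at 7.10, 6.41 and 8.75 FPKM in high fat Jnk2, against 3.99, 2.75 and 4.07 in high fat control, and 3.21, 2.57 and 2.16 in chow Jnk2, against 2.86, 3.25 and 3.27 in chow control (1.06 ± 0.21, adjusted p = 0.00653). Each of the 3 genes was called with every library left out in turn. Col3a1, a fibrillar collagen, was at 9.98, 7.33 and 9.67 FPKM in high fat Jnk2, against 5.92, 3.13 and 4.34 in high fat control, with an interaction of 1.33 ± 0.35 (adjusted p = 0.0232) that was not called without chow control replicate 3, chow Jnk2 replicate 3 or high fat control replicate 2. The stellate count was 1 without each of those 3 libraries, 2 without chow control replicate 2, 3 without chow Jnk2 replicate 2 or high fat Jnk2 replicate 1, and 1 of the 3 members that passed a filter of 5 FPKM. The endothelial count was 2 without chow Jnk2 replicate 3.

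Of 21 macrophage genes, 15 rose on high fat in Jnk2 and 10 in control (19.7% and 10.1% of all loci). In the interaction limma called 0 of the 21, with a median of 0.37, while 9.52% of all loci were called. Lgals3, Gpnmb and Mmp12 were called higher in the fit of the 4 groups alone, without the Jnk1Jnk2 groups and with array weights. Cd68, a lysosomal macrophage protein, was at 15.9, 13.2 and 19.1 FPKM in high fat Jnk2, against 9.53, 9.37 and 9.34 in high fat control. The groups were apart on high fat, and the interaction of 0.69 ± 0.27 was not called (adjusted p = 0.103). Of the 3 tested erythroid genes, 1 was called higher (6.18% of all loci), the globin gene Hba-a2 (1.42 ± 0.43, adjusted p = 0.0442). Its call held in 4 of 12 fits with 1 library left out.

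Of 18 iron and metal genes, 2 were called higher and 3 lower (6.18% and 3.33% of all loci). The higher 2 were the ferritin chains that store iron: Fth1 was at 1703, 1542 and 1511 FPKM in high fat Jnk2, against 1026, 999 and 1093 in high fat control, and 1023, 1114 and 1034 in chow Jnk2, against 1046, 1222 and 1179 in chow control (0.73 ± 0.13, adjusted p = 0.00368), and Ftl1 had an interaction of 0.80 ± 0.19 (adjusted p = 0.0133). High fat Jnk2 was above all other libraries in both. Slc39a14, the inflammation-induced zinc and iron importer ZIP14, was at 37.8, 30.9 and 43.1 FPKM in high fat Jnk2, against 47.4, 49.7 and 60.2 in high fat control, and 48.3, 41.1 and 39.7 in chow Jnk2, against 27.7, 31.2 and 33.7 in chow control, with an interaction of -0.95 ± 0.18 (adjusted p = 0.00528). Mt2, a metallothionein that buffers zinc, was at 99.8, 58.1 and 131 FPKM in high fat Jnk2, against 256, 245 and 852 in high fat control, and 682, 411 and 341 in chow Jnk2, against 265, 241 and 319 in chow control. Its high fat Jnk2 libraries were the lowest 3, and the interaction was -2.77 ± 0.70 (adjusted p = 0.0203). Among 14 genes of drug metabolism, 1 was called lower, Cyp3a13, and 1 higher, Cyp3a11 (3.33% and 6.18% of all loci). Cyp3a13 was at 61.2, 51.9 and 61.7 FPKM in high fat Jnk2, against 82.0, 80.4 and 85.0 in high fat control, and 108, 91.3 and 94.8 in chow Jnk2, against 61.3, 59.2 and 61.0 in chow control, with the genotypes in opposite order on the 2 diets and no overlap (-1.18 ± 0.17, adjusted p = 0.000505). Cyp3a11, the main hepatic Cyp3a enzyme, was at 394, 271 and 296 FPKM in high fat Jnk2, against 246, 133 and 166 in high fat control and 1306, 1277 and 1403 FPKM in chow Jnk2, against 2184, 1884 and 1764 in chow control. It fell on high fat in both, less in Jnk2 (1.39 ± 0.41, adjusted p = 0.0389), and the call held in 2 of 12 fits with 1 library left out. Of 17 NRF2 targets 3 were called higher (6.18% of all loci), 1 without chow Jnk2 replicate 3, and 2 without chow control replicate 2 or high fat control replicate 2 or in the fit of the 4 groups alone. Among the 3 was Gsta2, a glutathione transferase (1.44 ± 0.34, adjusted p = 0.0147).

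Other lists had few or no called members, while 9.52% of all loci were called. Of 26 genes of one-carbon, amino acid and urea metabolism, 15 fell on high fat in Jnk2 and 16 in control (6.39% and 6.19% of all loci). In the interaction 0 were called (median 0.04). The lists of gluconeogenesis (15 members), circadian output (13), ATF4 and CHOP targets (13), sex-biased liver genes (16), cell cycle (9) and cytosolic ribosomal proteins (20) also had 0 called members, with medians from -0.4 to 0.41. The 0 for circadian output depended on the scaling: 2 members were called lower with size factors, 2 with quantile normalization and 3 with the length trend removed. Of the ribosomal proteins 2 were called higher with quantile normalization. Oxidative phosphorylation (21 members) and the core clock (14) had 1 called member each. Of 8 hepatocyte markers Apob alone was called, and the list median was -0.13. In insulin and IGF signalling 1 of 18 was called higher and 2 lower (6.18% and 3.33% of all loci). The lower pair held Insr, the insulin receptor, at 10.9, 10.5 and 15.0 FPKM in high fat Jnk2, against 21.1, 16.7 and 19.9 in high fat control, and 19.9, 17.9 and 18.2 in chow Jnk2, against 17.1, 16.5 and 17.1 in chow control (-0.77 ± 0.21, adjusted p = 0.0287), a call that held in 5 of 12 fits with 1 library left out. Igfbp2, a binding protein of insulin-like growth factors, was at 272, 536 and 1129 FPKM in high fat Jnk2, against 192, 212 and 299 in high fat control (1.59 ± 0.43, adjusted p = 0.0261), and its call held in 8 of 12.

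**Figure D4:**
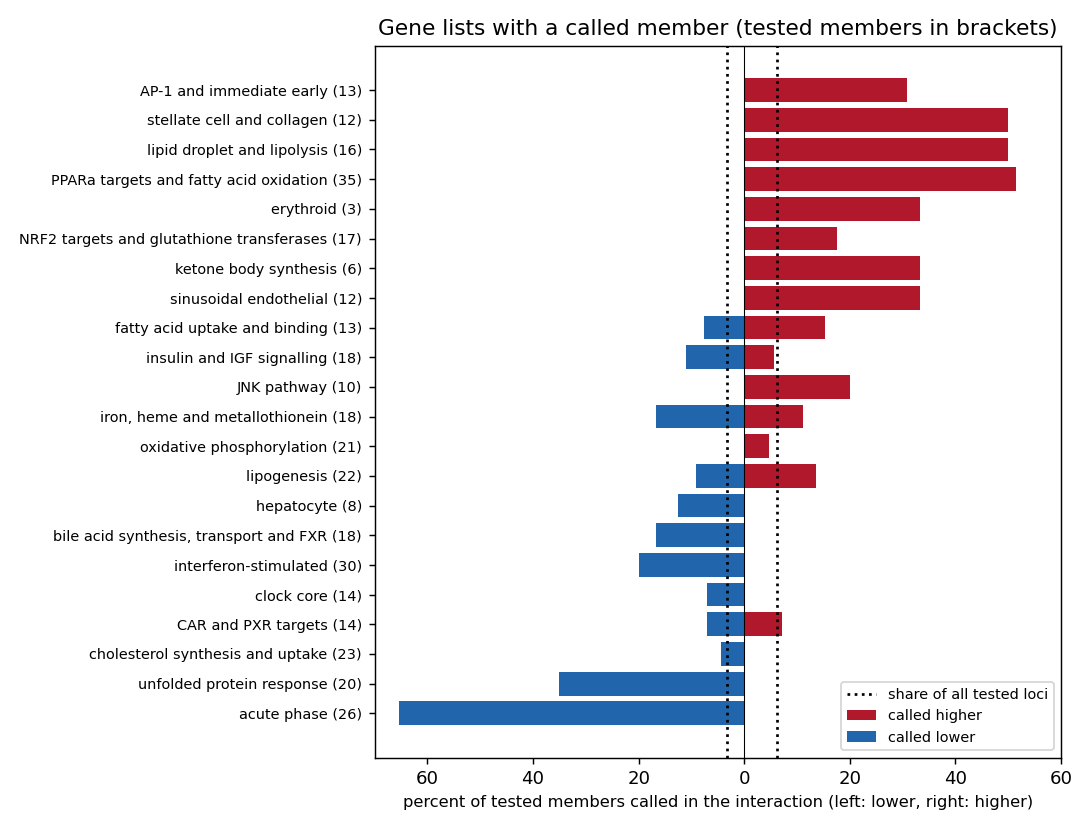
Percent of the tested members of each gene list that were called in the interaction, higher to the right in red and lower to the left in blue, ordered by list median, with dotted lines at the shares of all tested loci (6.18% higher, 3.33% lower). The acute phase list, with 17 of 26 called lower, and the fatty acid oxidation list, with 18 of 35 called higher, reach furthest in each direction.

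Krt23, Tubb2a, Cntnap1 and Cdc42ep5 were among the loci with the largest positive interactions and belong to none of the lists. Krt23, an epithelial keratin, was at 11.0, 8.64 and 11.2 FPKM in high fat Jnk2, against 1.35, 1.15 and 1.63 in high fat control, and 1.23, 1.55 and 1.18 in chow Jnk2, against 2.26, 1.99 and 4.44 in chow control. High fat Jnk2 was above all other libraries, and the interaction was 2.94 ± 0.42 (adjusted p = 0.000505). Tubb2a, a beta tubulin, was at 19.7, 17.1 and 89.1 FPKM in high fat Jnk2, against 9.55, 7.56 and 8.11 in high fat control, and 14.5, 13.5 and 8.64 in chow Jnk2, against 17.5, 18.3 and 23.9 in chow control. Cntnap1, a cell adhesion molecule, was at 4.14, 3.79 and 15.5 FPKM in high fat Jnk2, against 1.34, 1.28 and 1.29 in high fat control, and Cdc42ep5, an effector of the GTPase CDC42, at 2.43, 4.15 and 13.5 FPKM in high fat Jnk2, against 2.06, 1.37 and 1.63 in high fat control. In all 3 genes high fat Jnk2 replicate 3 was far above the other libraries. The interaction of Tubb2a was 2.47 ± 0.54 (adjusted p = 0.0101), that of Cntnap1 2.13 ± 0.52 (adjusted p = 0.0165) and that of Cdc42ep5 2.05 ± 0.47 (adjusted p = 0.0129). Without that library Tubb2a was at 1.73, Cntnap1 at 1.55 and Cdc42ep5 at 1.45, and the calls of Tubb2a and Cdc42ep5 were lost in the fit of the 4 groups alone.

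The genotypes differed far more on high fat than on chow in number of calls. On high fat 1311 loci (12.4%) were called between Jnk2 and control, 787 higher and 524 lower, but 126 in a fit of those 2 groups alone and 855 without high fat control replicate 2. On chow 48 (0.454%) were called, 11 higher and 37 lower. Before adjustment, 1390 loci (13.2%) had p under 0.05 there. The count on chow was 6 without chow control replicate 1 or chow Jnk2 replicate 3, 2 in the fit of the 2 groups alone and 466 with array weights. High fat against chow gave 2751 calls in Jnk2 (26%) and 1717 in control (16.3%). The first was 1687 in the fit of its 2 groups alone and 1727 without chow Jnk2 replicate 3, and the second 1050 without chow control replicate 3.

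The same interaction was fitted for the other knockouts, using the same control libraries. For Jnk1 it was called at 0 of the 10562 loci (0%), with 545 at an unadjusted p under 0.05 (5.16%), and for Jnk1Jnk2 at 3689 (34.9%). The Jnk1 interaction was 0.61 ± 0.27 for Acot1, 0.45 ± 0.52 for Cidec, -0.34 ± 0.38 for Apcs and -0.04 ± 0.26 for Itih4, against 2.34 ± 0.27, 3.50 ± 0.52, -2.17 ± 0.38 and -1.33 ± 0.26 for Jnk2. In the Jnk1Jnk2 livers the same genes had 1.63 ± 0.27, 2.71 ± 0.52, -0.70 ± 0.38 and -1.09 ± 0.26. Of the 35 oxidation genes 21 were called higher in Jnk1Jnk2, of the 26 acute phase genes 12 lower, and of the 20 unfolded protein response genes 11 lower (15.8% of all loci were higher and 19.1% lower). The 3 high fat Jnk1Jnk2 libraries stood apart from the other 21. Their deviations from the mean of all libraries had Spearman correlations with transcript length of -0.32 to -0.36 across 10193 loci, against -0.11 to 0.24 in the other 21, and their FPKM summed to 849000 to 873400, against 634800 to 734400. Replicate 3 also held 213 FPKM of Acta1, the actin of skeletal muscle. The part of these differences in the Jnk1Jnk2 counts was not tested. Without both Jnk1Jnk2 groups in the fit, the Jnk2 interaction was called at 888 loci. In Jnk1Jnk2, 2 of the 12 endothelial markers and 1 of the 12 stellate markers were called higher. Eng had 0.24 ± 0.14 and Col4a1 0.06 ± 0.21 in Jnk1Jnk2, with intervals of -0.05 to 0.53 and -0.39 to 0.50.

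The diet response of Jnk2 was also tested against that of Jnk1 directly, a difference that uses no control library. It was called at 1118 loci (10.6%), 680 higher (6.44%) and 438 lower (4.15%) in Jnk2. By list, 17 of the 35 oxidation genes and 5 of the 16 droplet genes were higher. Lower were 12 of the 26 acute phase genes, 7 of the 20 unfolded protein response genes and 14 of the 23 cholesterol genes. Of the 4 tested neutrophil markers 2 were called lower in the same contrast, with a list median of -2.85: S100a8, a calcium-binding protein of neutrophils, was at 11.4, 7.50 and 11.9 FPKM in high fat Jnk2, against 31.6, 39.5 and 95.9 in high fat Jnk1, while on chow it was at 82.3, 10.5 and 11.2 FPKM in chow Jnk2, against 11.8, 7.21 and 7.15 in chow Jnk1 (-3.44 ± 0.81, adjusted p = 0.0131). The part of these transcripts in the acute phase count was not tested. Acot2 was at 19.8, 18.6 and 28.2 FPKM in high fat Jnk2, against 8.21, 9.54 and 7.91 in high fat Jnk1, and at 8.58, 8.23 and 6.96 in chow Jnk2, against 7.81, 9.57 and 10.4 in chow Jnk1, a difference of 1.46 ± 0.22 (adjusted p = 0.000951). Apcs was at 57.6, 45.0 and 61.1 FPKM in high fat Jnk2, against 131, 135 and 147 in high fat Jnk1, and at 225, 100.2 and 69.2 in chow Jnk2, against 69.8, 90.1 and 86.5 in chow Jnk1 (-1.83 ± 0.38, adjusted p = 0.00714). Fasn was at 4.57, 5.82 and 3.28 FPKM in high fat Jnk2, against 14.2, 16.3 and 11.5 in high fat Jnk1 (-1.58 ± 0.25, adjusted p = 0.00125). The count was 583 without chow Jnk2 replicate 3, 529 and 528 without replicate 1 of chow and of high fat Jnk1, and 694 without high fat Jnk1 replicate 2.

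**Figure D5:**
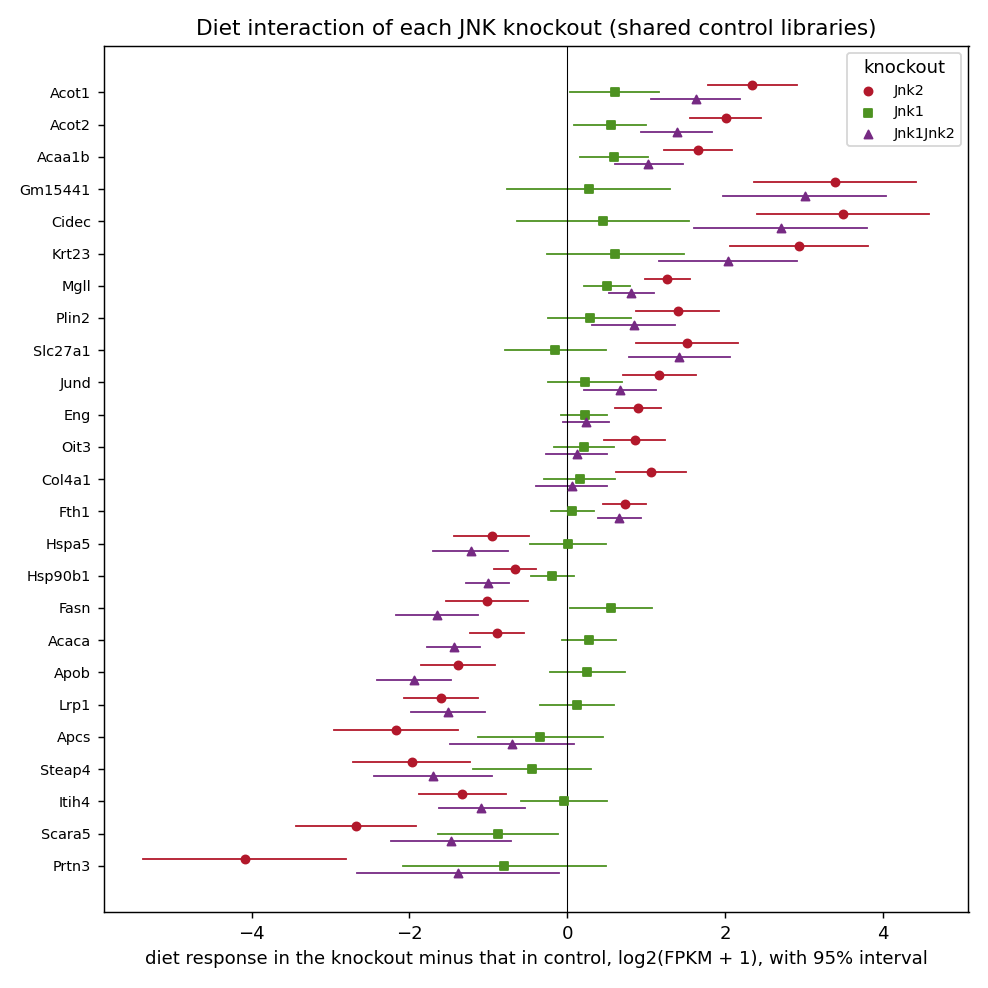
Diet interaction of each knockout (the difference between high fat and chow in the knockout minus that in control, log2(FPKM + 1)) for 25 named genes, with 95% intervals of each single comparison as lines; the 3 estimates of a gene share the control libraries. The genes were chosen for their Jnk2 interaction. The wider spread of the Jnk2 estimates, from -4.09 for Prtn3 to 3.5 for Cidec, therefore follows in part from the choice.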

How the data were processed

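Liver RNA of 24 libraries, 3 in each of 8 groups placed by their titles, was measured by RNA sequencing. TopHat, Cufflinks, Cuffdiff and mm10 are named in the submitters' processing notes; their versions are not given in the sources used here. FPKM of 31027 loci were deposited by the authors for each library. With no counts, neither a count model nor an interval for counting error was possible. At 6 loci 18 zeros were failed estimates, and those loci are not named. Deposited starts were taken to count from 0, and 1 was added before printing.

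Differences of log2(FPKM + 1) were tested with limma-trend (R 4.3.3, limma 3.58.1). A single model held the 8 group means of the 24 libraries, which left 16 residual degrees of freedom, and covered the 10562 loci with a mean of at least 1 FPKM, with Benjamini-Hochberg adjustment within each contrast. The fit was also run on simulated data, and the outcome is not reported here. Exact permutation of 3 against 3 libraries was not used, since its smallest two-sided p is 0.1.

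Gene lists, members and tests were chosen with earlier results of these data known, so lists are described by counts and medians. The rule for named genes takes Mapk8, Mapk9, Mapk10, Fgf21 and Ppara, the 12 largest called rises and falls, the 10 largest interactions among loci called for diet in each genotype, and up to 4 members per list with the smallest p. Not all of them are printed, and results for some items are not reported here. Canx and Acaa1a were named after their values were seen. Alternatives were other pseudocounts, filters, scalings and sample sets, array weights, a replicate block and each library left out in turn. List counts with each library left out were added after seeing the data. Promoters and motifs were read with Python 3.11.15 and pandas 2.3.3 from RefSeq sequences.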

Additional observations from a re-analysis of the deposited data

Results flagged for a closer look

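Results for which a difference between the diet responses of 2 genotypes was tested and called are collected here. The diet response differed between Jnk2 and control at 1005 loci, and between Jnk2 and Jnk1 at 1118 loci. Of 92 genes followed through all settings, 57 were called in the difference between Jnk2 and Jnk1 (10.6% of all loci were). Most of these genes were chosen for their Jnk2 interaction, and both contrasts use the Jnk2 libraries, so that count follows in part from the choice. The 8 with the smallest p are given as the diet response of Jnk2 minus that of Jnk1. Abcb11, the bile salt export pump, was at -1.20 ± 0.15 (adjusted p = 0.000259). Lrp1, the remnant receptor, was at -1.72 ± 0.22 and Apob, the structural protein of very low density lipoprotein, at -1.64 ± 0.23. The enzymes of fatty acid synthesis were lower as well, Acaca at -1.17 ± 0.16 and Fasn at -1.58 ± 0.25. The acyl-CoA thioesterases were higher, Acot2 at 1.46 ± 0.22 and Acot1 at 1.74 ± 0.27, as was the predicted locus Gm15441 at 3.12 ± 0.49. For Abcb11 and Fasn the response of Jnk1 relative to control had the opposite sign to that of Jnk2, with 0.60 ± 0.15 and 0.56 ± 0.25, neither of them called (adjusted p = 0.563 and 0.921). Groups of 3 libraries were too small for a test of single outlying libraries.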

How the results depend on the processing

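Libraries with the same replicate number showed no strong shared pattern: of 18 same-number pairs of groups, 1 had a correlation of deviations over 0.1, and the range was -0.26 to 0.202. The labels do not say whether they shared any handling, and low correlations cannot exclude it. With the replicate number as a block the calls were 924 for the interaction, 2706 and 1633 for high fat against chow in Jnk2 and in control, 1271 for Jnk2 against control on high fat, 20 on chow, and 1041 against Jnk1. With array weights these counts were 2375, 4570, 3067, 2824, 466 and 2430. In a fit of the groups of each contrast alone the interaction gave 655, high fat against chow in Jnk2 1687, Jnk2 against control 126 on high fat and 2 on chow, and the difference from Jnk1 680. At a filter of 5 FPKM high fat against chow in Jnk2 gave 1662. The 48 calls on chow became 31 at a pseudocount of 0.1, 25 with no filter, 22 with size factors, 21 without the Jnk1Jnk2 groups and 25 with the length trend removed. Leaving out 1 library gave 509 to 1337 calls for the interaction, 1727 to 2969 and 1050 to 1619 for the diet in Jnk2 and control, 855 to 1408 and 6 to 27 for the genotype on high fat and on chow, and 528 to 1491 against Jnk1. The causes of these shifts were not tested.

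For the 92 followed genes, 1754 of the values under other settings kept their direction and their side of the threshold, 207 lost the call, 33 gained it and 8 turned sign. The turned values were those of Mapk9 and Mapk8, neither called: Mapk9 had -0.05 with array weights, with size factors and with quantile normalization. With 1 library left out Mapk9 ranged from -0.04 to 0.1 and Mapk8 from -0.19 to 0.01. Depth is unknown here, so values under about 1 FPKM, such as several of Prtn3, have an unknown counting error.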
